A study of Chlamydomonas reinhardtii with 2 samples.

Results

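Short internal exons, of 60 bases or less, were examined in the N-replete transcriptome of the green alga Chlamydomonas reinhardtii. An internal exon is one that a single read enters by splicing on one side and leaves by splicing on the other, so that both of its borders are known. Among 3688 distinct internal exons in the library, 932 were 60 bases or less. They were chosen by the aligned length of the exon, so their shortness and their number are descriptions and are not tested. The RNA came from strain dw15.1, of genotype cw15, nit2, mt+, in which cw15 is a cell wall mutation and nit2 affects the regulator of nitrate assimilation. Under continuous light, cells reached 5000000 per mL in acetate-containing TAP medium with 10 mM ammonium, and a portion then spent 48 hours in 50 mL of the same medium. Full-length cDNA was primed on poly(A) tails, amplified by PCR, size-selected and sequenced by pyrosequencing. The portion moved to medium without nitrogen was not analysed here, so the data are 1 library, with no replicate error and no comparison of conditions. All intervals are exact Clopper-Pearson 95% intervals, or order-statistic 95% intervals for medians, and they describe counting error alone, because reads copied by PCR need not stem from separate molecules.

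Most exons of nuclear genes are joined by the spliceosome, which recognises a 5' splice site, usually GT, at the start of each intron and a 3' splice site, usually AG, at its end. The splice sites can be paired across the intron (intron definition) or across the exon (exon definition), and very short exons leave little room for factors on both borders. In animals, exons of a few codons, called microexons, are known from neurons, where they are often included or skipped by cell type. An exon whose length is a multiple of 3 can be skipped or included without shifting the reading frame. The nuclear genes of Chlamydomonas are rich in introns. The deposited records give positions, differences and splice signs but no bases, and no genome of their build was used here. For that reason no exon sequence is printed and no exon is assigned to a gene. All positions are in the build of the records, which the sources used here do not name, on sequences numbered 1 to 17 or named NA.

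The library held 239585 aligned reads, of which 223395 had a single best place and were used, with a median read length of 235 bases. Of these, 44906 had a splice direction and 13689 held at least 1 internal exon. A short internal exon was held by 4306 reads, or 31.5% (interval 30.7 to 32.2) of the reads with an internal exon. The share of short exons depended on how much of the read was aligned. In reads with up to 150 aligned bases, 68.4% (interval 63.6 to 72.9) of the internal exon alignments were short, against 19.9% (interval 18.4 to 21.4) in reads with more than 250. A longer exon needs a longer read to show both borders, so the proportion of 932 in 3688 is not the proportion in the transcriptome.

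The 932 exons ranged from 3 to 60 bases, with a median of 47 and quartiles of 36 and 54. The class of 46 to 60 bases held 497 of them, that of 31 to 45 bases 281, that of 16 to 30 bases 112, and that of 15 bases or less 42. Near the limit the numbers ran on without a step. There were 108 exons of 58 to 60 bases and 110 exons of 61 to 63 bases, of which 49 and 51 were seen in at least 2 reads.

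**Figure D1:**
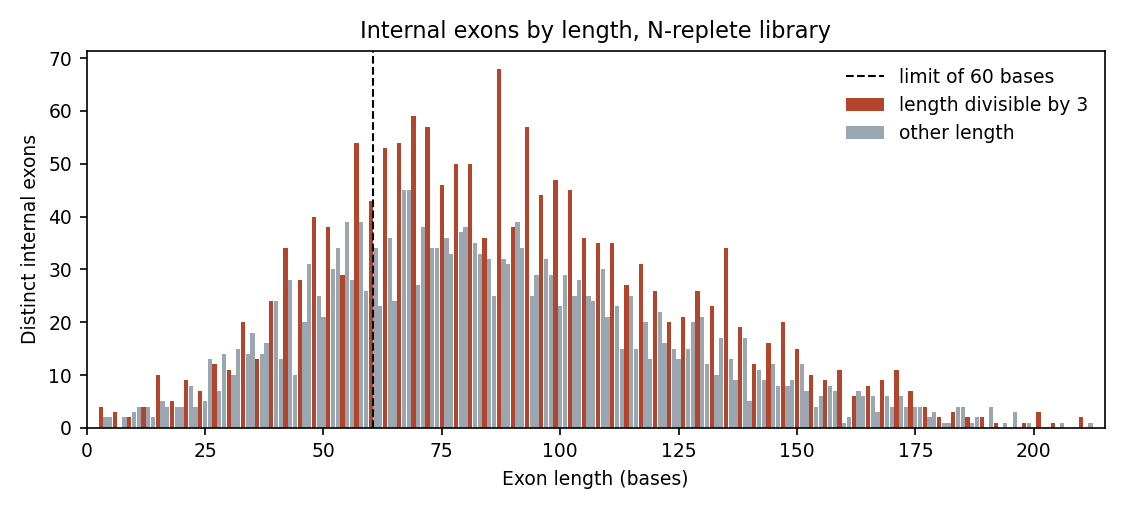
Number of distinct internal exons (y axis) at each exon length in bases (x axis) in the N-replete library. Lengths divisible by 3 are red, other lengths grey, and the dashed line marks the limit of 60 bases; the red bars stand out on both sides of the limit, at 41.8% of the exons up to 60 bases and 42.9% of all internal exons.

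With exons of any read support counted, lengths that keep the reading frame made up a similar share of short and longer internal exons. A length divisible by 3 was found for 390 of the 932 short exons (41.8%, interval 38.7 to 45.1), beside 42.9% of all internal exons. It was found for 42.7% (interval 40.3 to 45.3) of those of 61 to 100 bases and for 43.9% (interval 41.1 to 46.7) of those over 100 bases. The intervals of the 3 classes overlap. With at least 10 reads the shares lay further apart, at 38.0% (interval 27.3 to 49.6), 46.9% (interval 38.1 to 55.9) and 53.6% (interval 41.2 to 65.7) from the shortest class to the longest. These intervals also overlap. Among short exons, 281 were 1 base over a multiple of 3 and 261 were 2 bases over. The shortest class, of 15 bases or less, had the highest share, with 23 of 42 exons (54.8%, interval 38.7 to 70.2), but its interval overlaps those of the other classes.

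Short exons were seen in more than 1 read at least as often as longer ones. Of the 932, 443 (47.5%, interval 44.3 to 50.8) were seen in at least 2 reads, beside 43.0% of all internal exons. For exons of 61 to 100 bases the share was 44.6% (interval 42.1 to 47.1), and for those over 100 bases it was 37.5% (interval 34.7 to 40.3), below the interval of the short exons. A read counts only if it shows both borders, which favours shorter exons, and these shares were not adjusted for it. At least 10 reads supported 79 short exons (8.48%, interval 6.77 to 10.5), beside 7.54% of all internal exons. The median was 1 read per exon, and 489 short exons rested on 1 read. Of the 443 exons with at least 2 reads, 248 (55.98%, interval 51.2 to 60.7) were seen in reads of both directions, along and against the transcript. This share was similar, at 53.6%, for all internal exons with at least 2 reads. Among the 79 short exons with at least 10 reads, 76 were seen in both directions.

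The alignments of the short exons were mostly free of differences. No mismatch or gap was listed in 3626 of 4767 alignments of short exons (76.1%, interval 74.8 to 77.3), and 784 of the 932 exons had at least 1 such alignment. In the class of 15 bases or less this was 150 of 154 alignments. A shorter exon has fewer bases at which an error can fall, so these shares are not comparable between lengths. At least 20 bases were aligned on each side of the exon, in at least 1 read, for 878 of the 932 (94.2%, interval 92.5 to 95.6). For all internal exons the share was similar, at 93.3%.

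The 10 short exons with the most reads held 1228 of the 4767 alignments, or 25.8%. The exon with the most reads lay on sequence 12, bases 1841165 to 1841204, minus strand. Its 40 bases were held by 193 reads, 143 along the transcript and 50 against it, between introns of 208 bases upstream and 145 bases downstream. No read skipped it (interval 0 to 1.89%), and no unspliced read crossed either border, against 205 and 219 spliced reads there. Its length is not a multiple of 3.

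A pair of these exons lay in the same run of overlapping alignments on sequence 11, minus strand. Whether a single transcript holds both was not determined. The 33-base exon at 1374041 to 1374073 had 170 reads, and the 57-base exon at 1373673 to 1373729 had 104. The former lay between introns of only 114 and 99 bases, and the latter between introns of 111 and 128 bases. The directions of their reads differed. The 33-base exon was read along the transcript in 107 reads and against it in 63, while for the 57-base exon the numbers were 8 and 96. The 57-base exon lies further toward the 3' side on this strand.

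On sequence 2, a 37-base exon at 1208852 to 1208888, plus strand, had 167 reads and introns of 93 and 92 bases on its sides. On sequence NA, the 42-base exon at 6674717 to 6674758, minus strand, had 135 reads, with introns of 119 bases upstream and 298 downstream. On sequence 6, the 48-base exon at 3951598 to 3951645, plus strand, had 110 reads, between longer introns of 275 and 299 bases. The introns of these 3 exons thus ranged from 92 to 299 bases.

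On sequence 12, plus strand, a 48-base exon at 5229688 to 5229735 and a 58-base exon at 5229856 to 5229913 followed each other, with 98 and 97 reads. An intron of 120 bases separated them, and the intron after the second had 618 bases. A 24-base exon at 5323802 to 5323825, on the same sequence and strand, had 78 reads. The last of the 10, on sequence 8 at 2110127 to 2110169, minus strand, had 43 bases and 76 reads. Of these 10 exons, only the 58-base exon was skipped, by 1 read against 97 that held it (1.02%, interval 0.0258 to 5.55).

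**Figure D2:**
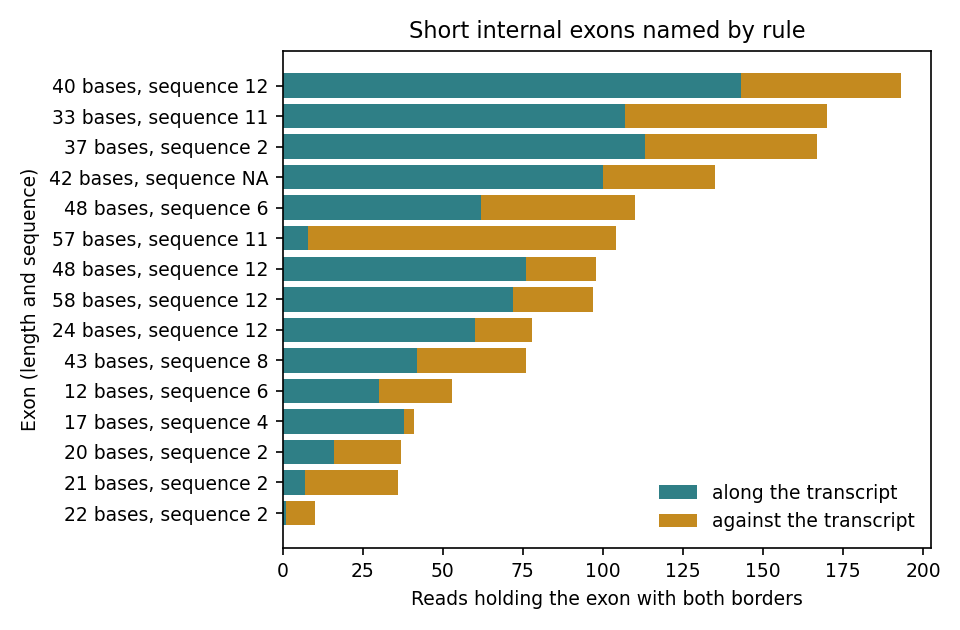
Reads that hold the exon with both borders (x axis) for the 10 short internal exons with the most reads and, below them, the 5 shortest with at least 10 reads, each named by its length and sequence (y axis). Teal is the part read along the transcript and ochre the part read against it; numbers run from 193 for the 40-base exon on sequence 12 to 10 for the 22-base exon on sequence 2, and every exon has reads of both directions.

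The 5 shortest exons with at least 10 reads were 12 to 22 bases long. On sequence 6, bases 1213388 to 1213399, plus strand, a 12-base exon was held by 53 reads, 30 along the transcript and 23 against it. It showed no difference in 52 of them. It lay between introns of 106 and 420 bases and could encode 4 codons if it lies in a coding region, which was not determined. The 3' splice site before it was used in 54 reads and the 5' splice site after it in 56. No read skipped this exon (interval 0 to 6.72%).

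A 17-base exon on sequence 4, at 2902393 to 2902409, plus strand, had 41 reads, all without a difference. It was followed after an intron of 122 bases by a 58-base exon with 29 reads. The other three lay on sequence 2. The 20-base exon at 1185473 to 1185492, plus strand, had 37 reads and followed a 45-base exon with 34 reads. The 21-base exon at 2600300 to 2600320, minus strand, had 36 reads, and the 22-base exon at 1315023 to 1315044, minus strand, had 10. None of the 5 was skipped in any read. With 10 reads, the interval for the 22-base exon reaches 30.8%, so frequent skipping could go unseen there.

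Exons of 6 bases or less were rare and thinly supported, and were singled out after their values were seen. There were 11, all without a difference, of which 4 had at least 2 reads and none had more than 4. Introns of other reads spanned 4 of the 11, beside 0.515% of all internal exons. The one with the most reads, a 3-base exon on sequence 1 with 4 reads, was spanned in 121 other reads. A 5-base exon on sequence 11, at 991433 to 991437, minus strand, was read once in each direction, between introns of 402 and 215 bases. A 6-base exon on sequence 10, at 2329186 to 2329191, plus strand, had 2 reads. On sequence 2, plus strand, 3 reads held a 12-base exon at 278808 to 278819 and then, after an intron of 256 bases, a 4-base exon at 279076 to 279079. In 1 other read an intron of 636 bases spanned both. The bases of these exons could not be inspected here, and whether such short matches are correctly placed was not tested.

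The introns next to short exons were shorter than those next to longer internal exons. Distinct introns next to the 932 exons numbered 1741 and had a median of 194 bases (interval 186 to 201), with quartiles of 128 and 282. Next to exons of 61 to 100 bases the median was 218 (interval 212 to 224, 2821 introns), and next to exons over 100 bases it was 229 (interval 223 to 235, 2259 introns). The interval of the short exons lies below the others, which overlap each other. An intron between a short and a longer exon counts in both classes. Without these 525 introns, the medians were 191 bases (interval 180 to 199) for short exons and 225 (interval 221 to 230) for longer ones. Introns of 100 bases or less made up 13.9% (interval 12.3 to 15.6) of those next to short exons, against 11.4% (interval 10.3 to 12.6) and 7.22% (interval 6.18 to 8.36) in the 2 longer classes.

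The medians kept the same order at matched read support. A locus is a run of overlapping alignments, introns included, in which neighbouring genes can be joined. Among exons with at least 2 reads, the medians were 180 bases (interval 172 to 191), 206 (interval 199 to 216) and 227 (interval 216 to 239) from the shortest class to the longest. With at least 10 reads they were 160.5 (interval 145 to 182), 196.5 (interval 180 to 212) and 199 (interval 175 to 219), and the intervals overlap. In 370 loci with both kinds of exon, introns next to both kinds left out, the median intron was shorter next to the short exons in 220 (59.5%, interval 54.3 to 64.5).

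**Figure D3:**
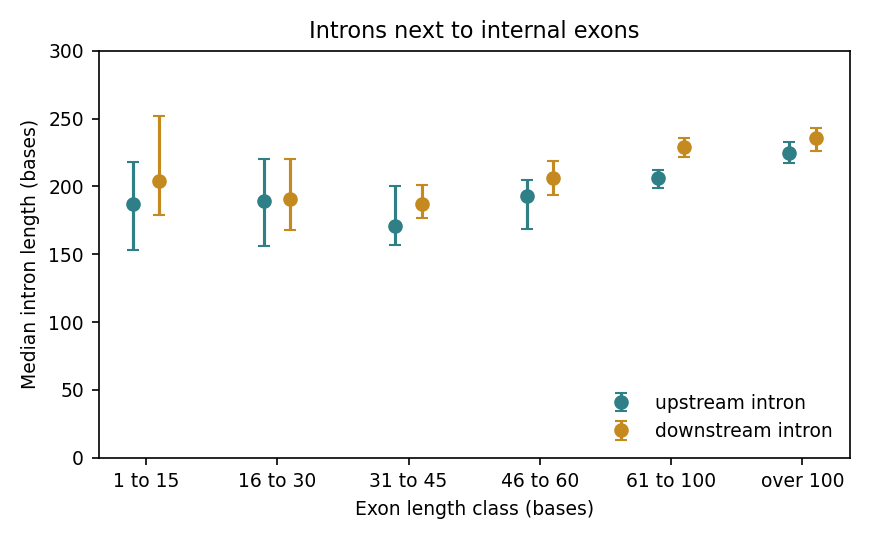
Median length in bases (y axis) of the upstream (teal) and downstream (ochre) intron of internal exons, by exon length class in bases (x axis); bars are order-statistic 95% intervals. The medians for exons up to 60 bases together are 185.5 bases upstream and 199 downstream, against 206 and 229 for exons of 61 to 100 bases, and no order is visible among the classes up to 60 bases.

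Upstream and downstream introns of short exons were of similar length. The medians were 185.5 bases (interval 169 to 199) upstream and 199 bases (interval 190 to 207) downstream. The downstream intron was the longer one at 472 of 923 short exons with unequal introns (51.1%, interval 47.9 to 54.4). At exons of 61 to 100 bases this share was 55.5% (interval 52.9 to 57.96). Within the short exons, the upstream medians of the 4 length classes ran from 171 to 193 bases with overlapping intervals. Both introns were 100 bases or less at 63 short exons.

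With exons of any read support counted, GC-AG splice borders made up a similar share next to short exons and elsewhere. GC-AG borders, in which the 5' splice site has GC, were found at 33 of the 1741 introns (1.90%, interval 1.31 to 2.65), beside 2.17% of the introns next to all internal exons. The share was 2.52% next to exons of 61 to 100 bases and 1.90% next to those over 100 bases. With at least 10 reads the order differed. From the shortest class to the longest, the shares were then 3.90% (interval 1.44 to 8.29), 1.69% (interval 0.464 to 4.28) and 1.56% (interval 0.190 to 5.53). These intervals overlap. At any support, GC-AG borders numbered 21 among 930 upstream introns and 11 among 928 downstream introns of short exons, taking the commonest introns of each exon. Introns next to exons of 46 to 60 bases had 26 of the 33 (2.69% of 965, interval 1.77 to 3.92). The best supported case was a 55-base exon on sequence 7, at 2299775 to 2299829, plus strand, with 31 reads and a GC-AG intron of 340 bases after it. A 53-base exon on sequence 13, at 2490749 to 2490801, plus strand, had 25 reads and followed a GC-AG intron of 193 bases. Both were chosen after their values were seen.

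Short exons lay nearer the 5' side of their loci than longer internal exons. At 255 loci with at least 50 reads and 1 splice direction, the midpoints of 170 short exons had a median position of 24.3% (interval 19.7 to 28.03) of the span of the locus, counted from the 5' side. The 729 longer internal exons had a median of 35.8% (interval 33.3 to 37.4). In 109 loci with both kinds, the short exons had the lower median position in 74 (67.9%, interval 58.3 to 76.5). Positions are in genome bases and loci can hold more than 1 gene, so they do not give the place in a coding sequence.

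**Figure D4:**
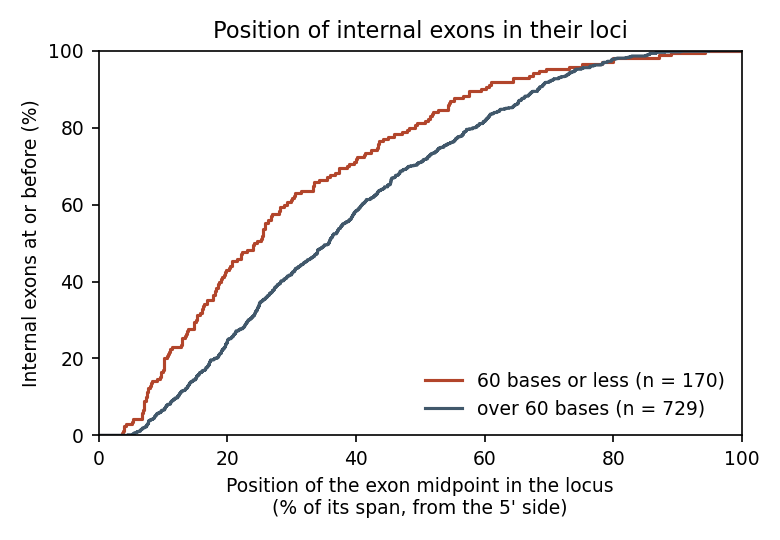
Cumulative share of internal exons (y axis, %) by the position of their midpoint in the locus (x axis, % of its span from the 5' side), at loci with at least 50 reads and 1 splice direction. The curve of exons of 60 bases or less (red, n = 170, median 24.3%) rises before that of longer internal exons (blue, n = 729, median 35.8%) over most of the span.

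Many short exons had a short neighbour. In 221 of the 932 (23.7%, interval 21.0 to 26.6), at least 1 read showed another short internal exon directly next to it, and these formed 118 distinct pairs. Both must fit in 1 read, which favours short neighbours, and no such share was computed for longer exons. In 40 of the pairs neither length was a multiple of 3, and in 26 of these (65.0%, interval 48.3 to 79.4) the sum was. The possible remainders were about equally common among short exons (281 and 261), so unrelated lengths also often add up to a multiple of 3. Whether the lengths of neighbours are linked was not tested. The 932 exons lay in 707 loci, of which 542 had 1 short exon, 123 had 2, 30 had 3, 7 had 4, 4 had 5 and 1 had 6.

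The run with the most members lay on sequence 11, plus strand, between 965096 and 965964, where 1 read held 4 short exons of 42, 24, 21 and 33 bases in a row. All 4 lengths are multiples of 3. Introns of 292, 115 and 342 bases separated them, and no other read held any of these exons with both borders. Of the 11 runs of 3, the pair held whole by the most reads follows. On sequence 12, minus strand, 2 reads held exons of 16, 57 and 48 bases in transcript order between 9146227 and 9145945, with introns of 89 and 73 bases. Here the 16-base exon was held by 6 reads in all. On sequence NA, plus strand, 2 reads held exons of 55, 34 and 30 bases between 2189891 and 2190618, with introns of 408 and 201 bases. The locus with the most short exons, on sequence 17 at 6319669 to 6323143, had 6 among its 9 internal exons, from 20 reads. Among the 6 was an 8-base exon at 6322745 to 6322752, minus strand, held by 7 reads without a difference.

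**Figure D5:**
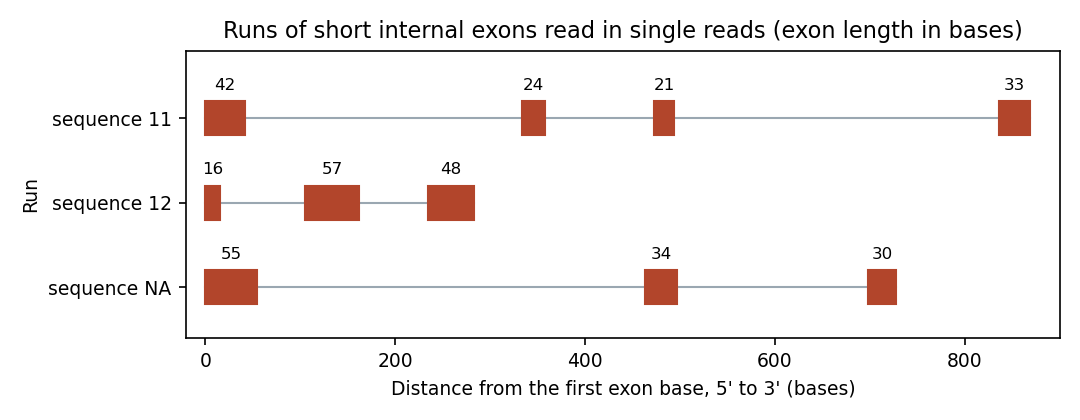
The run of 4 short internal exons and, of the 11 runs of 3, the 2 held whole by the most reads, drawn to scale along the distance in bases from the first exon base, 5' to 3' (x axis), 1 run per line (y axis). Red boxes are exons with their lengths in bases and grey lines introns; the run on sequence 11 holds 4 exons of 42, 24, 21 and 33 bases, the others 3 each.

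Skipping of short exons was rarely seen. Reads that joined the outer ends of both neighbouring introns, and so left the exon out, were found for 3 of the 932 exons (0.322%, interval 0.0664 to 0.938), beside 0.0813% of all internal exons. They numbered 10, against 4767 alignments that held a short exon (0.209% of both, interval 0.1004 to 0.385). No longer internal exon was skipped, in 7135 alignments of 61 to 100 bases (interval 0 to 0.0517%) and 4133 over 100 bases (interval 0 to 0.0892%). An exon of any length entered these counts only if at least 1 read held it with both borders. Exons that are mostly skipped can thus be missing, and the pooled shares weigh each exon by its reads. A read that skips an exon must bridge a gap of both introns and the exon, with a median of 450.5 bases for short exons and 616 for those over 100 bases. The alignment call set a maximum intron of 1000 bases, although single introns next to short exons reached 2047. This distance was exceeded at 36 short exons (3.86%) and at 128 exons over 100 bases (10.5%), and whether it hid skipping reads was not tested.

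A single exon accounted for 8 of the 10 skipping reads. This 57-base exon lay on sequence 2, at 6457128 to 6457184, plus strand. Only 1 read held it with both borders, while 8 reads joined the outer ends as an intron of 264 bases (88.9% of these 9 reads, interval 51.8 to 99.7). In all, 4 reads used its 3' splice site and 2 its 5' splice site. Its length is a multiple of 3. Without it, 2 skipping reads remained among 4768 (0.0419%, interval 0.00508 to 0.151). They belonged to the 58-base exon on sequence 12 described above and to a 37-base exon on sequence NA, at 2662027 to 2662063, minus strand, which 1 read held and 1 skipped. Among the 79 exons with at least 10 reads, 1 was skipped, in 1 read.

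Introns of other reads with different outer ends also spanned short exons, most often the shortest ones. In all, 12 short exons (1.29%, interval 0.667 to 2.24) were spanned, beside 0.515% of all internal exons, and 9 of these had no skipping read by the definition above. They included 7 of the 42 exons of 15 bases or less (16.7%, interval 6.97 to 31.4) and 2 of the 112 of 16 to 30 bases (1.79%, interval 0.217 to 6.30). A 15-base exon on sequence 9, at 1428152 to 1428166, minus strand, was held by 9 reads, while 5 reads had an intron of 586 bases over it that ended 18 bases short of the outer end.

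In 4 of these cases 1 outer end was equal and the other fell short by as many bases as the exon holds. On sequence 17, minus strand, 4 reads held a 16-base exon at 5630547 to 5630562, after a 45-base exon at 5630917 to 5630961 with 4 reads and an intron of 354 bases. All 4 alignments of the 45-base exon listed a difference. A further 4 reads had an intron of 487 bases over the 16-base exon, and the 45-base exon had a form of 61 bases, longer by 16, in 2 reads. On sequence 3, plus strand, a 10-base exon at 6074576 to 6074585 had 1 read, as had the intron of 748 bases over it. Before these introns, the preceding exon had forms of 64 and 74 bases. On sequence 1, a 3-base exon at 3944915 to 3944917, minus strand, had 4 reads and a gap of 21 bases before it, while 121 reads had an intron of 167 bases over it, ending 3 bases short of the outer end. On sequence 10, plus strand, a 3-base exon at 5444045 to 5444047 had 1 read and a gap of 25 bases before it. There, 15 reads had an intron of 370 bases over it, and the 54-base exon that follows had a form of 57 bases, longer by 3, in 13 reads. The exons of 3 bases on sequences 1 and 10 were the only ones of the 932 next to a gap under 50 bases. Whether the same bases were placed in different ways was not tested.

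Few short exons had a second border. Another internal exon with 1 border shared and the other shifted was found for 17 of the 932 (1.82%, interval 1.07 to 2.90), beside 2.68% of all internal exons. The share was 3.05% (interval 2.25 to 4.03) for exons of 61 to 100 bases and 2.88% (interval 2.02 to 3.99) for those over 100 bases, with overlapping intervals. They made 11 pairs, of which 7 differed in the 3' splice site before the exon and 4 in the 5' splice site after it. In 6 pairs the difference was a multiple of 3, and in 6 it was 6 bases or less. Both forms had at least 2 reads in only 2 pairs. One was the 45-base and 61-base pair on sequence 17. The other lay on sequence 16, plus strand, where forms of 52 bases, at 3882940 to 3882991, and 46 bases, at 3882946 to 3882991, had 3 reads each. Both were followed by the same GC-AG intron of 126 bases.

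Included in these counts were short exons that matched the ends of a longer one. On sequence 2, plus strand, exons of 42 bases each at 5612336 to 5612377 and 5612444 to 5612485 were joined to other exons in 1 read each, with an intron of 66 bases between them. In 2 other reads the whole stretch was a single exon of 150 bases. Each 42-base exon was paired with this exon, at a difference of 108 bases. The same 66-base intron thus entered the counts of both splice sites.

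Unspliced reads seldom crossed the borders of short exons. Such crossings, with at least 10 aligned bases on each side, numbered 193 of 12402 (1.56%, interval 1.35 to 1.79). Spliced reads needed no such length. At exons under 10 bases, a read spliced at the other border could not count as unspliced, and the shares were not adjusted for this. The share was 1.93% (interval 1.77 to 2.10) for exons of 61 to 100 bases and 0.431% (interval 0.358 to 0.514) for those over 100 bases. They fell on 52 of 1858 borders (2.799%, interval 2.10 to 3.65), beside 2.27% of the borders of all internal exons. A single border on sequence 6, at base 2983559, had 78 of them against 1 spliced read. It belongs to a 50-base exon at 2983510 to 2983559, minus strand, seen in 1 read, whose 75-base form to base 2983584 was held by 61 reads. The border thus lies inside the longer form. Without this border, the share was 0.933% (interval 0.771 to 1.12), and among exons with at least 2 reads it was 0.450% (interval 0.333 to 0.595). For exons of 61 to 100 bases with at least 2 reads it was 1.61% (interval 1.45 to 1.78), and for those over 100 bases 0.394% (interval 0.318 to 0.482). With at least 10 reads the shares were 0.234% (interval 0.139 to 0.369), 0.307% (interval 0.229 to 0.404) and 0.294% (interval 0.212 to 0.398) from the shortest class to the longest, and all 3 intervals overlap. The order of the classes thus depended on read support.

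Short exons occurred on every sequence. They made up 20.8% (interval 16.7 to 25.5) of the internal exons on sequence 6, the lowest share, and 40% (interval 29.5 to 51.2) on sequence 11, the highest, where 34 of 85 were short. These are the extremes of 18 sequences. The intervals of the other 16 sequences all overlap with that of sequence 6.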

How the data were processed

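For the N-replete condition the deposited records are GMAP alignments, which the authors made with version 2007-09-28 with maximum intron options of 1000 bases, per the file headers; GSNAP is named in the submitters' processing notes. These other values are positions, identities and splice signs in no expression unit, and up to 5 places are listed per read. No source used here names the genome build, and the available gene table belongs to a named assembly that could not be matched to it, so no gene was assigned. Reads of the N-deprived condition were not analysed here.

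Each read was kept at its best place, scored as identity times aligned share, and 16190 reads with another place within 0.1 percentage points were left out. Internal exons needed GT-AG or GC-AG signs and gaps of at least 20 bases on both sides, and were merged by sequence, start, end and strand. Exons were named as the 10 with the most reads, the 5 shortest with at least 10 reads, those with at least 2 skipping reads (1 exon) and the 3 runs with the most members (ties broken by reads that hold the whole run); others are marked as chosen later. A locus was given a splice direction when 95% or more of its directed reads, 10 or more in number, shared it. Alternatives changed read placement, alignment quality, read support, duplicates, borders, gaps and the length limit. The members, lists and alternatives were chosen with earlier results of these data known. On simulated alignments, 400 of 400 internal exons, 20 of 20 skipped exons, 40 of 40 tied reads and 13 of 13 unspliced crossings were recovered. These alignments were written without errors, so they checked the counting and could not test how the aligner places short exons. Scripts ran under Python 3.11.15 with scipy 1.17.1 for intervals, numpy 2.4.6 for medians, and matplotlib 3.10.9 for figures.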

Additional observations from a re-analysis of the deposited data

Results flagged for a closer look

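Alignments outside the definition also held short internal exons. Tied reads alone showed 7 further exons of 60 bases or less, in 14 alignments. A further 54 short internal exons, in 69 alignments, had a border other than GT-AG or GC-AG on at least 1 side, of which 1 had AT-AC borders. None of these 54 coincided in position and strand with a counted exon.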

How the results depend on the processing

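Limits on read support and on exon length moved the most values. Reads with exactly 1 alignment, tied reads kept, duplicates counted once and gaps of at least 50 bases left every value within its interval, or for the number of exons within 1.5 times. With at least 2 reads per exon, 443 short exons remained with a median of 3 reads, an intron median of 180 bases, 0.0234% skipping, 0.677% with a second border and 0.450% read-through. With at least 10 reads there were 79 exons with a median of 22 reads and an intron median of 160.5 bases. Of these exons, 38.0% had a length divisible by 3, 0% a second border and 17.7% a short neighbour. The other values were 3.90% GC-AG introns, 0.0329% skipping and 0.234% read-through. At both limits on reads, a second border or short neighbour counted only if the other exon also passed the limit. The 33-base exon on sequence 11 with 170 reads, whose 29-base form had 1 read, was thus not counted. A limit of 45 bases gave 435 exons, 183.5 bases, 0.966% GC-AG, 0.0434% skipping, 0.551% read-through and 18.2% with a short neighbour. A limit of 75 bases gave 1541 exons, 202 bases and 34.8%. Requiring 95% identity and 90% of the read aligned gave a lower value of skipping, 0.0312%, and of read-through, 0.527%. Read-through was 1.33% for exons with an alignment of 100% identity, and GT-AG borders alone leave 0% GC-AG by construction. Of the alternatives added after seeing the data, leaving out the exon or the border with the most events gave 0.0419% skipping and 0.933% read-through, and counting every spanning intron gave 3.42% skipping. Skipping and read-through thus rest on few exons with few reads. The causes of the other changes were not tested.

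Of 135 recomputed values, 103 stayed within these bounds. Most of these values describe the short exons alone and have no direction that could change. The order of the length classes was compared only by read support, where it changed for read-through and for GC-AG borders, as given above. With at least 10 reads, the share with a second border was 0% in every class. The position in the locus stayed between 22.2% and 25.9%. At a limit of 45 bases, the share of loci with the short exons nearer the 5' side was 62.5% (interval 48.5 to 75.1). Exons of 1 read cannot be separated from misplaced alignments at this depth. No paired analysis was possible because only 1 library was analysed.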
